A study of Homo sapiens with 22 samples.

Results

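The 10 genes described here, of 63677 genes listed, make catecholamines or build the dense-core granules that store them. These genes were chosen by symbol, with earlier results of these data known. They are the enzyme genes TH, DDC and DBH, the noradrenaline reuptake transporter SLC6A2, the vesicular monoamine transporters SLC18A1 and SLC18A2, the granins CHGA and CHGB, and the neuropeptide genes NPY and VGF. Levels were read by identifier in 22 libraries of human neuroblastoma cells.

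Neuroblastoma arises from the sympathoadrenal lineage of the neural crest, which also gives rise to sympathetic neurons and to the chromaffin cells of the adrenal medulla. In these cells tyrosine hydroxylase (TH) turns tyrosine into L-DOPA, aromatic L-amino acid decarboxylase (DDC) turns L-DOPA into dopamine, and dopamine beta-hydroxylase (DBH) turns dopamine into noradrenaline inside the granule. Vesicular monoamine transporters load the amine into granules, which also hold chromogranins and neuropeptides, and SLC6A2 takes released noradrenaline back up.

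The SH-SY5Y line is a human neuroblastoma line that can be driven towards a neuronal state with retinoic acid. All its libraries came from cells stably transduced with a lentiviral shRNA and selected with puromycin, the controls with a scrambled sequence. The other cells carried shRNAs against a transcript of the long non-coding RNA gene CASC15, either CASC15-003 (sh003) or CASC15-004 (sh004), and each transcript was targeted by 2 sequences, called sh1 and sh2. At day 0 cells grew in medium with serum, as 3 control, 3 sh003 and 2 sh004 libraries. At day 7 they had received retinoic acid for 7 days, and the labels give its dose as 10 mM, with 2 control, 3 sh003 and 2 sh004 libraries. Sphere cultures in another medium gave 1 control, 2 sh003 and 2 sh004 libraries. KELLY, another human neuroblastoma line, is represented by a control siRNA library and a library treated with an siRNA against SOX9, a transcription factor gene, 1 of each. The 4 shRNA sequences are shown because they define the knockdown groups.

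sh003 sh1: ctagcactgacctccttcatt
sh003 sh2: ctttccatcagccaacaatat
sh004 sh1: caggctgttcccagggattta
sh004 sh2: taggaataccttacatccaat

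Values are RPKM, reads per kilobase of gene length scaled to the library's assigned reads, so levels can be compared between genes per length. Libraries held 11.9 to 62.1 M assigned reads. Titles number 3 batches of monolayer cultures, and all sh004 monolayers are of batch 2. The neuroblast markers GATA3, HAND2 and ISL1 were detected in every group. In 2 sh003 libraries (sh2 of batch 1 at day 0 and sh1 of batch 2 at day 7) the culture tag contradicts the title. CYP26A1, whose enzyme degrades retinoic acid, read 0.199 RPKM in the first and 687 in the second, as in other libraries of the titled day, and values without both are given below. The library labelled sh004 sh2 at day 7 stood apart, with CYP26A1 at 9.001 RPKM against 221 to 687 in the other day 7 libraries, and INSM1 at 8.57 against 0.345 or lower in the other 14 monolayers. The CASC15 gene as a whole read 1.31 to 2.38 RPKM in day 0 controls, 1.57 to 2.65 with sh003 and 1.14 to 1.16 with sh004, a sum over isoforms that does not check the loss of 1 transcript. Replicate libraries of a group differ in the batch of the title, in the shRNA sequence or in both. The p-values reflect that spread between libraries. No label says what a batch was or that batches were separate cultures.

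Among untreated control monolayers the VGF precursor and the last enzyme of noradrenaline synthesis stood highest, and the first enzyme of the pathway was almost silent. VGF lay at 556 ± 186 RPKM (SD, n = 3) and DBH at 413 ± 193 RPKM. NPY (119 ± 49.1 RPKM), CHGA (110 ± 97.7), CHGB (73.6 ± 71.7), SLC6A2 (73.4 ± 42.0), DDC (58.3 ± 17.9) and SLC18A1 (32.9 ± 19.1) followed, and from NPY down to DDC each mean lay within an SD of the next, while DDC and SLC18A1 lay further apart. SLC18A2 lay at 2.44 ± 0.600 RPKM and TH at 0.570 ± 0.868 RPKM.

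TH, which encodes the rate-limiting enzyme, lay at 1.57 RPKM or below in all 15 monolayers. The day 0 controls read 0.130, 1.57 and 0.0110 RPKM in batches 1, 2 and 3, the last from 1 read. At day 7 the controls read 0.0803 and 0.952 RPKM, so the batch 2 control was the highest library at both days. With sh003 TH lay at 0.0123 to 0.0509 RPKM at day 0 and at 0 to 0.0374 RPKM at day 7, and the library with 0 reads allows up to 0.0283 RPKM, a limit for counting error only. With sh004 the day 0 libraries read 0.210 and 0.0255 RPKM, and those of day 7 read 0.154 and 0.447. TH therefore failed the filter for monolayers (RPKM of 1 or above in at least 2 libraries), and the tests there cover 9 of the 10 genes. The ratio of DBH to TH, per length, ran from 353 to 17490 at day 0, from 22.3 to 2626 in spheres, and was 5.35 and 2.43 in the KELLY control and SOX9 siRNA libraries.

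**Figure D1:**
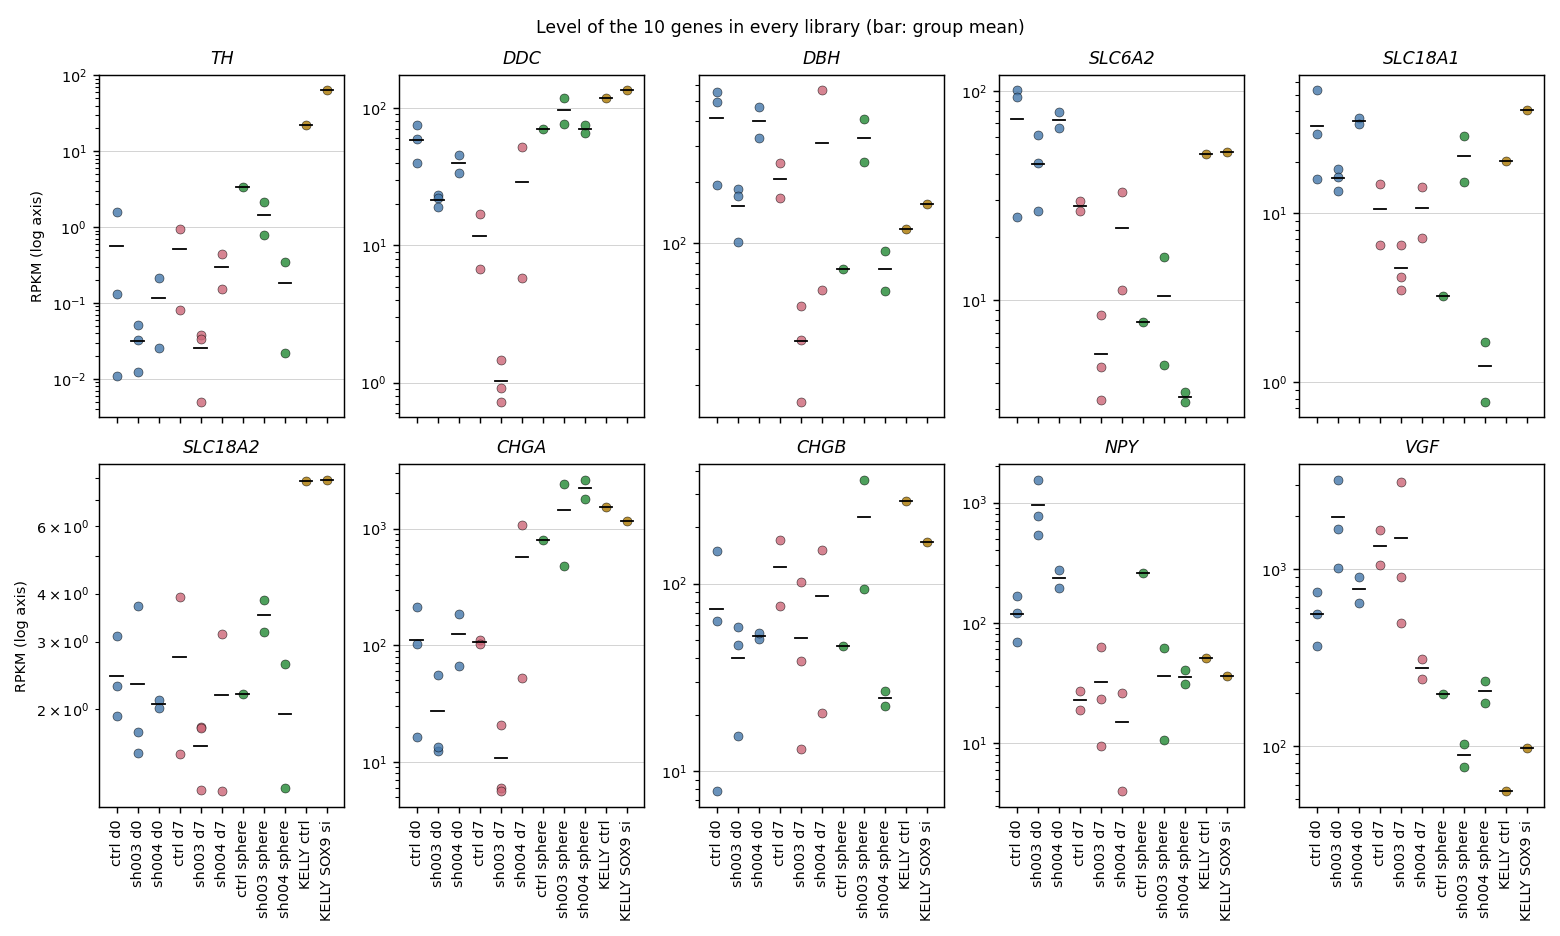
Level of each of the 10 genes (RPKM, log axis) in every library of the 11 groups, with 1 point per library and a bar at the group mean; the 1 library with 0 TH reads is drawn at 0.005 RPKM. TH is at 1.57 RPKM or below in all monolayers and at 22 and 64.0 in the KELLY libraries, and NPY in every day 7 library lies below every day 0 library.

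After 7 days of retinoic acid genes for dopamine synthesis, granule loading, noradrenaline reuptake and neuropeptide Y were lower, and no change in the granins was called. In limma, averaged over control, sh003 and sh004, DDC, SLC6A2, SLC18A1 and NPY fell, 4 of the 9 genes tested, and 0 rose. Over all 19461 genes tested 5.67% were called lower and 8.81% higher. With the batch as a block DBH was also called, 5 of 9, where 12.1% of all genes were lower. The median log2 change over the 9 was -1.42, against 0.10 over all genes tested. Treated cells were also 7 days older in culture than the day 0 cells, so retinoic acid and time cannot be told apart. In these bulk libraries fewer cells of a type and less RNA per cell cannot be told apart either.

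NPY encodes neuropeptide Y, which sympathetic neurons release with noradrenaline. At day 0 the controls read 121, 68.7 and 167 RPKM, the sh003 libraries 1547, 536 and 781, and the sh004 libraries 197 and 273. At day 7 the controls read 18.7 and 27.1 RPKM, the sh003 libraries 63.5, 9.47 and 23.4, and the sh004 libraries 3.95 and 26.1. All 7 day 7 libraries lay below all 8 day 0 libraries, which holds in this direction for 0.704% of all genes tested. NPY fell by 3.94 on the log2 scale (SE 0.48, limma adjusted p = 7.68e-04), and it was the only one of the 9 whose days did not overlap.

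DDC at day 0 read 39.9, 75.6 and 59.6 RPKM in controls, 21.99, 19.0 and 23.4 with sh003, and 45.6 and 33.3 with sh004. At day 7 it read 6.70 and 16.8 RPKM in controls, 1.46, 0.726 and 0.913 with sh003, and 5.77 and 51.9 with sh004. Every day 7 library except sh004 sh2 lay below every day 0 library. DDC fell by 2.45 on the log2 scale (SE 0.40, limma adjusted p = 0.00386). Unstranded counting would mix DDC reads with those of the antisense gene DDC-AS1, and the strand setting is not given in the sources used here. DDC also overlaps FIGNL1, a protein coding gene of the same strand, and its part was not tested.

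SLC6A2 at day 0 read 101, 94.0 and 25.0 RPKM in controls, 61.8, 45.4 and 26.7 with sh003, and 79.1 and 66.9 with sh004. At day 7 it read 26.7 and 29.7 RPKM in controls, 8.50, 3.33 and 4.79 with sh003, and 11.2 and 32.9 with sh004. The days overlapped through the low batch 3 libraries of day 0. SLC6A2 fell by 1.98 on the log2 scale (SE 0.36, limma adjusted p = 0.00645). It overlaps AC136621.1, a gene of the same strand, whose part was not tested.

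SLC18A1 (VMAT1), the transporter typical of chromaffin cells, fell by 1.66 on the log2 scale (SE 0.28, limma adjusted p = 0.00438). Its day 0 values ran from 13.6 to 53.5 RPKM with a median of 23.8, and its day 7 values from 3.49 to 14.8 RPKM with a median of 6.49. SLC18A2 (VMAT2), the transporter typical of neurons, lay at 1.54 to 3.71 RPKM at day 0 and 1.22 to 3.93 at day 7 (log2 change -0.11, SE 0.25, adjusted p = 0.886). The ratio of SLC18A1 to SLC18A2, per length, was 4.92 to 17.3 at day 0 (median 13.0). At day 7 it was 2.33 to 5.86 (median 3.77). SLC18A2 overlaps 3 genes of the opposite strand, among them the protein coding gene PDZD8, whose reads may be mixed in.

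DBH at day 0 read 492, 555 and 193 RPKM in controls, 183, 170 and 101 with sh003, and 469 and 329 with sh004. At day 7 it read 247 and 167 RPKM in controls, 48.9, 16.5 and 33.2 with sh003, and 59.0 and 565 with sh004. The sh004 sh2 library was the highest of all 15 monolayers. The averaged DBH change of -1.42 (SE 0.47, limma adjusted p = 0.0664) was not called without the block. With the block it was -1.64 (SE 0.46, adjusted p = 0.0221), and that call was lost in 5 of 15 fits that left out a library. Without the sh004 sh2 day 7 library and without the block the change was -1.96 (SE 0.34, adjusted p = 0.00535), and without sh004 sh1 at day 7 it was -0.88 (SE 0.34, adjusted p = 0.144). DBH lay over DDC by 3.24 to 12.3 times at day 0 and 9.95 to 36.9 times at day 7, per length. DBH overlaps the antisense gene DBH-AS1, whose reads may be mixed in likewise.

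The granins and VGF showed no averaged change that limma called. Chromogranin A (CHGA) and chromogranin B (CHGB) are acidic proteins that pack the granule core. CHGA at day 0 read 102, 211 and 16.4 RPKM in controls, 55.7, 13.5 and 12.5 with sh003, and 184 and 66.7 with sh004. At day 7 it read 111 and 102 RPKM in controls, 20.6, 5.95 and 5.59 with sh003, and 52.7 and 1080 with sh004. The 1080 RPKM of sh004 sh2 was the highest CHGA level of any monolayer, and the sh003 libraries were the lowest at day 7. CHGB ran from 7.78 to 150 RPKM at day 0 and from 13.1 to 171 at day 7. The averaged log2 changes were 0.16 for CHGA (SE 0.75, adjusted p = 0.973) and 0.54 for CHGB (SE 0.71, adjusted p = 0.734). Both changed sign with the block, to -0.27 and -0.04, and neither was called.

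**Figure D2:**
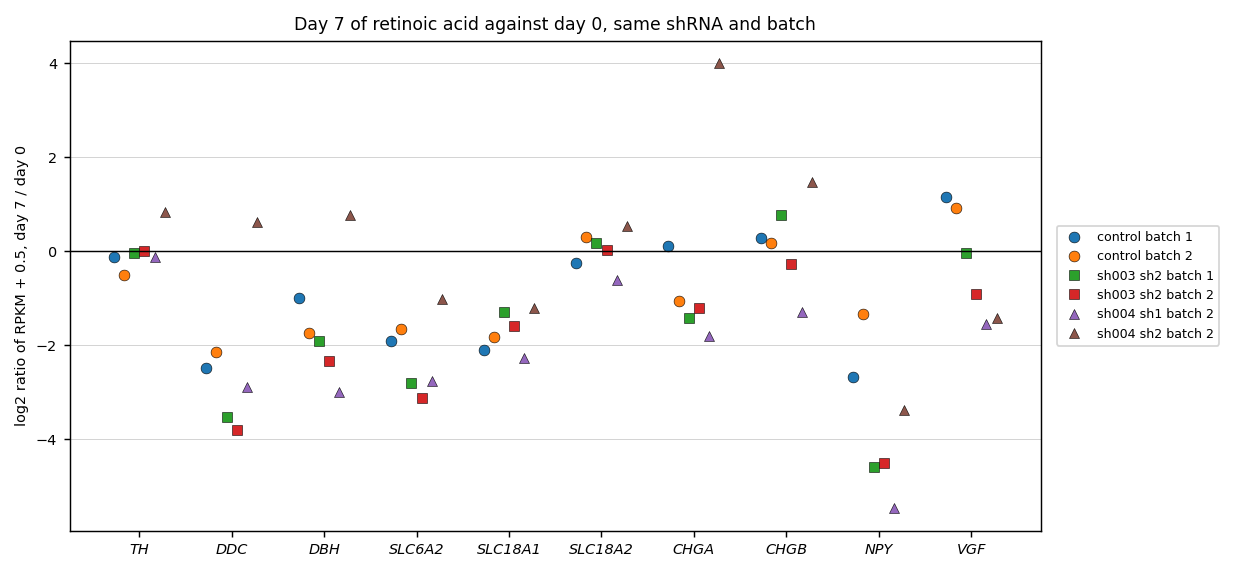
Log2 ratio of RPKM + 0.5, day 7 against day 0, for the 6 pairs of libraries with the same shRNA and batch (circles control, squares sh003, triangles sh004). NPY, SLC6A2 and SLC18A1 lie below 0 in all 6 pairs, and the sh004 sh2 pair parts from the others at CHGA, at 4.01.

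Each of the 6 pairs of day 0 and day 7 libraries that shared shRNA and batch gave the same direction for 3 genes. NPY differed by -5.47 to -1.33 on the log2 scale, SLC6A2 by -3.12 to -1.01 and SLC18A1 by -2.28 to -1.21. DDC (-3.79 to 0.63) and DBH (-2.98 to 0.78) were lower in 5 of 6 pairs, with the sh004 sh2 pair higher in both. In that pair CYP26A1 was higher by 4.16 on the log2 scale, against at least 8.17 in the other 5. Without that day 7 library the averaged DDC change was -2.96. Its part in the result beyond these values was not tested.

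VGF, a granin-like precursor of several secreted peptides, lay on different sides of day 0 in the control and knockdown pairs. Day 0 controls read 741, 558 and 369 RPKM, below the 1659 and 1059 RPKM of the day 7 controls. With sh003 VGF at day 0 read 3200, 1686 and 1012 RPKM, and its day 7 values were 3127, 495 and 905. With sh004 it read 905 and 644 RPKM before treatment and 311 and 240 afterwards. Both control pairs were higher at day 7, by 0.92 and 1.16 on the log2 scale, and all 4 knockdown pairs were lower, by -1.54 to -0.03. The difference in response itself was not called, at -1.96 for sh003 (SE 0.94) and -2.79 for sh004 (SE 1.04), both with a limma adjusted p of 1. The VGF to NPY ratio, per length, was 1.30 to 8.13 at day 0 and 9.20 to 88.6 at day 7.

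Of the 10 genes, 6 have an entry in a RefSeq promoter table (build GRCh38.p14), and the 250 bases before each start were searched on both strands for 4 motifs. The cyclic AMP response element TGACGTCA was found in SLC18A2, CHGA and VGF, and in 1.65% of all 35116 promoters of the same length. It began 48, 54 and 79 bases before the start, and no other motif overlapped it. The GATA letters AGATAA (9.17% of all promoters), the homeodomain palindrome of TAAT and ATTA with 3 free bases between (0.33%) and the repeat of AGGTCA after 5 free bases (0.00285%) were found in none of the 6, and none of the 4 motifs was in the windows of DDC, DBH or NPY. The matches describe letters only. The 3 windows are printed 5′ to 3′ in the gene's direction, with the response element in capitals, at chr10:117240864-117241113 (plus strand), chr14:92922900-92923149 (plus strand) and chr7:101165570-101165819 (minus strand).

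SLC18A2: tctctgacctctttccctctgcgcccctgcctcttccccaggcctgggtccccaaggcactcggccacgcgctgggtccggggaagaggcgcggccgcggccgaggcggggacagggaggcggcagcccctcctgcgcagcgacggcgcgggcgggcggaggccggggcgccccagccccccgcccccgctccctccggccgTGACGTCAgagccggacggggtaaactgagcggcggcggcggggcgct
CHGA: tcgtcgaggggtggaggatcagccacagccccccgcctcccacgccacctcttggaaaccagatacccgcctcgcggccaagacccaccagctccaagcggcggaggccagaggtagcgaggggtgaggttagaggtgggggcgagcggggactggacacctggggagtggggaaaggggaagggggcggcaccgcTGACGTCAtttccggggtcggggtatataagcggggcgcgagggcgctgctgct
VGF: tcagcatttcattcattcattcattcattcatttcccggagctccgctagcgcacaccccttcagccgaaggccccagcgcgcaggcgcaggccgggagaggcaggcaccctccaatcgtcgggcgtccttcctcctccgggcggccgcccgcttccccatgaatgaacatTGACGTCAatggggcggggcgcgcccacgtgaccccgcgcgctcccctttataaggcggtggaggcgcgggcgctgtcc

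Within each group of shRNAs the retinoic acid change was read separately. With sh003 limma called 3 of 9 lower and 0 higher, against 0.786% and 1.57% of all genes, namely DDC (-3.86, SE 0.62, adjusted p = 0.01), SLC6A2 (-2.91, SE 0.56, adjusted p = 0.0241) and NPY (-5.13, SE 0.75, adjusted p = 0.00618). With the batch block DBH (-2.57, SE 0.71, adjusted p = 0.0392) and SLC18A1 (-1.90, SE 0.45, adjusted p = 0.0234) were also called, 5 of 9 against 5.63% of all genes. Without the 2 libraries with contradictory tags 0 were called, at -3.70 for DDC (adjusted p = 0.0849), -2.36 for SLC6A2 (adjusted p = 0.165) and -4.05 for NPY (adjusted p = 0.0522). Without the sh2 day 7 library of batch 2 only NPY was called. The averaged change kept its count of 4 without the libraries with contradictory tags.

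In controls limma called 0 of 9, against 0.252% of all genes lower and 0.704% higher, with 3 at an unadjusted p under 0.05 and 0 called by voom. The share of all genes at an unadjusted p under 0.05 is not given here. Counts at that threshold, here and below, therefore do not set these genes apart from others. The days did not overlap for DDC (-2.35, SE 0.69, adjusted p = 0.158), SLC18A1 (-1.53), NPY (-2.28) and, upwards, VGF (1.31), where 9.44% of all genes lay apart downwards and 17.7% upwards. With sh004 limma called 0 of 9, against 0.128% of all genes lower and 0.252% higher. Before adjustment 3 were at p under 0.05, and voom called 0. The sh004 days did not overlap downwards for 4 of 9, as for 18.1% of all genes. These were NPY, SLC6A2 (-1.89), SLC18A1 (-1.74) and VGF (-1.48). NPY differed by -4.42 (SE 0.92, adjusted p = 0.0886) and was called with the block (adjusted p = 0.0267), 1 of 9 where 0.683% of all genes were lower, and without the sh2 day 7 library (-5.70, adjusted p = 0.0355). Without the sh1 day 7 library it differed by -3.13 (adjusted p = 0.423), and the call with the block was lost in 3 of 4 fits that left out a library. No gene's retinoic acid change was called different from that of the controls, with sh003 or sh004 (0 of 9 each, 1 each at an unadjusted p under 0.05, and none of the 9 by voom). All genes gave 0% called in either direction for these differences. The sh003 differences were below 0 for all 9, with a median of -1.51 against -0.05 over all genes tested. With sh004 7 were below 0 and 2 above, with a median of -0.22 against -0.09. All these differences share the same control libraries, and the share of all genes below 0 is not given.

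In other lists of amine and granule genes at most 1 gene per list was called in either direction at day 7 without the block. Over all genes tested 8.81% were called higher and 5.67% lower. Single calls in lists this small therefore say little about the lists. Of 12 genes for granule proteins and peptide processing 9 were tested. CYB561, which supplies reducing power to DBH in the granule, fell by 1.85 on the log2 scale (SE 0.20, limma adjusted p = 3.29e-04), from 78.4 to 249 RPKM at day 0 to 29.6 to 60.2 at day 7 with no overlap. SCG5, a chaperone of the prohormone convertase PCSK2, rose by 0.82 (SE 0.22, adjusted p = 0.0311), and the other 7 were not called. Of 6 genes of the tetrahydrobiopterin cofactor that TH needs, GCHFR rose by 0.61 (SE 0.13, adjusted p = 0.0124) and 5 were not called. Of 7 genes for breakdown, uptake and the adrenaline step 5 were tested, and MAOB, a monoamine oxidase, rose by 1.07 (SE 0.23, adjusted p = 0.0137). SLC6A3, the dopamine transporter, was at 0.0356 RPKM or below in all libraries. Of 8 other neuropeptide genes 4 were tested, and GAL, which encodes galanin, rose by 1.15 (SE 0.31, adjusted p = 0.0316). Of 4 cholinergic genes 2 were tested and 0 called, with ACHE at 0.90 (limma adjusted p = 0.0545). ACHE was called with the block (0.92, adjusted p = 0.0459), where 19.1% of all genes were called higher.

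Among 9 regulators of noradrenergic genes, 8 were tested and 4 fell with limma, against the 5.67% above. GATA3 fell by 1.83 on the log2 scale (SE 0.27, adjusted p = 0.00236), GATA2 by 1.39 (SE 0.29, adjusted p = 0.0114) and HAND2 by 0.49 (SE 0.14, adjusted p = 0.0408). These 3 encode transcription factors of sympathetic neuron development. PHOX2A stood at 0.53 (SE 0.17, adjusted p = 0.0580) and was called higher with the block. Of 10 markers of mesenchymal or Schwann-like cells 7 were tested at day 7, VIM (-1.17, SE 0.22, adjusted p = 0.00747) and SNAI2 (-1.10, SE 0.23, adjusted p = 0.0101) fell and 0 rose.

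Before treatment, cells with sh003 had more NPY and VGF and less DDC and DBH than controls, with no overlap between the 3 libraries of each group, but limma called 0 of 9. Over all genes 0.00514% were called higher and 0% lower, 3 of the 9 reached an unadjusted p under 0.05, and voom called 0. The log2 differences were 2.95 for NPY (SE 0.75, adjusted p = 0.446), 1.72 for VGF (SE 0.63, adjusted p = 0.736), -1.38 for DDC (SE 0.62, adjusted p = 0.854) and -1.35 for DBH (SE 0.73, adjusted p = 0.935). Groups did not overlap downwards for 5.12% of all genes and upwards for 3.91%. Against the control of the same batch NPY was higher in all 3 sh003 libraries, by 2.22 to 3.67, and in both sh004 libraries, by 1.51 and 1.98. Without the library with a contradictory tag NPY differed by 2.53 (adjusted p = 0.894). The summed level of the 10 mesenchymal or Schwann-like markers was 293 to 473 RPKM with sh003 and 184 to 307 in controls. These ranges overlap. The Schwann-cell gene SOX10 read 0.136 RPKM or below in these libraries. All 7 markers tested lay above control, with a median of 0.81 against -0.06 over all genes, but limma called 0 of them. The part of these markers in the result was not tested.

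**Figure D3:**
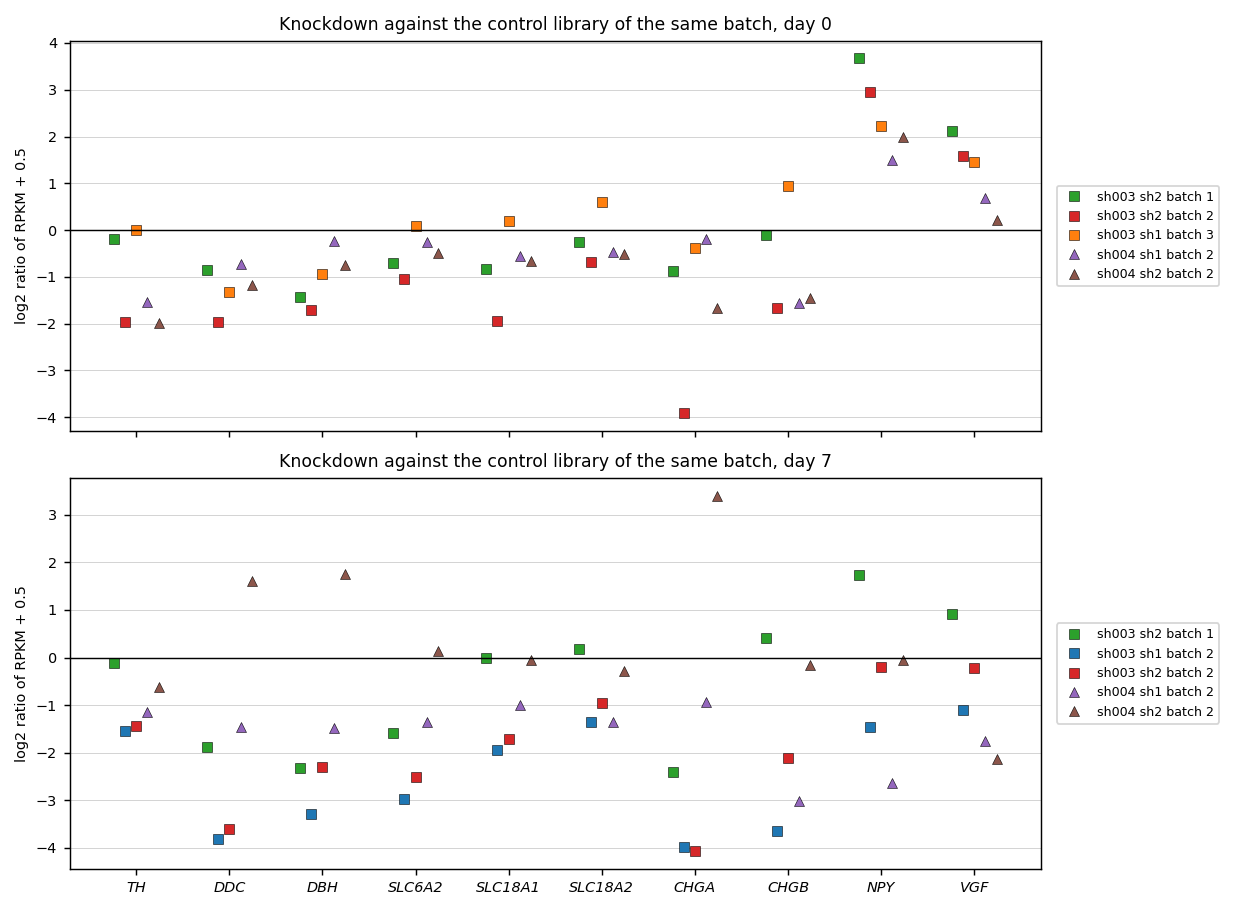
Log2 ratio of RPKM + 0.5 of each knockdown library against the control library of the same batch, at day 0 (upper panel) and day 7 (lower panel), for sh003 (squares) and sh004 (triangles). At day 0 NPY and VGF lie above 0 in all 5 pairs, and at day 7 DDC, DBH, SLC6A2 and CHGA lie below 0 in all 3 sh003 pairs.

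At day 7 the sh003 libraries lay below both controls for DDC, DBH, SLC6A2, SLC18A1 and CHGA, 5 of 9, where 13.6% of all genes did so. The log2 differences were -2.89 for DDC (SE 0.69), -2.74 for DBH (SE 0.81) and -2.34 for SLC6A2 (SE 0.63), each with a limma adjusted p of 0.566. They were -3.51 for CHGA (SE 1.30, adjusted p = 0.593) and -1.03 for SLC18A1 (SE 0.48, adjusted p = 0.707). Limma called 0 of 9 and 0% of all genes in either direction, with 4 of the 9 at an unadjusted p under 0.05 and 0 called by voom. Within batches DDC was lower than control in 3 of 3 pairs by -3.82 to -1.88, and CHGA by -4.07 to -2.41. The summed mesenchymal or Schwann-like markers read 250 to 294 RPKM with sh003 and 110 to 226 in controls. Of the 7 markers tested 6 lay above control, with a median of 1.055 against -0.09 over all genes, but limma called 0. The part of these markers in the result was not tested.

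With sh004 limma called 0 of 9 against controls at either day. All genes gave 0% called in either direction at both days, 0 of the 9 at day 0 and 1 at day 7 had a p under 0.05 before adjustment, and voom called 0. NPY at day 0 lay above all controls (1.05, SE 0.84, adjusted p = 1), 1 of 9 where 7.66% of all genes lay apart upwards. VGF at day 7 lay below both (-2.28, SE 0.77, adjusted p = 0.525), 1 of 9 where 22.1% of all genes lay apart downwards.

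Set against each other, the sh003 and sh004 monolayers gave 0 of 9 called by limma at day 0. Of all genes 0.00514% were called higher with sh003 and 0% lower. Before adjustment 2 of the 9 were at p under 0.05, and voom called 0. At day 0 the groups did not overlap downwards for 5 of 9, as for 13.7% of all genes, and upwards for 2, as for 12.4%. They included CHGA (-2.36), DBH (-1.42), SLC18A1 (-1.11), NPY (1.90) and VGF (1.205). At day 7 limma also called 0 of 9, with 0.0154% of all genes higher and 0.00514% lower, and voom called 0 of the 9. Before adjustment 6 of the 9 were at p under 0.05. The shares of all genes are for adjusted calls and are no background for that count. At day 7 the differences were -3.59 for DDC (adjusted p = 0.145), -2.59 for DBH (adjusted p = 0.274) and -4.67 for CHGA (adjusted p = 0.248), and they turned on which sh004 library was read. Without sh004 sh2, the library that stood apart, they were -2.06, -0.96 and -2.50. Without sh004 sh1 they were -5.12, -4.21 and -6.85. The lone sh004 library of each fit was assumed to vary like the other groups.

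In spheres SLC18A1, DBH and CHGB were higher with sh003 than with sh004 and VGF was lower, and differences of this kind were common among all genes. DBH read 251 and 410 RPKM with sh003 and 91.3 and 57.9 with sh004, for sh1 and sh2, and 74.4 in the control sphere. SLC18A1 read 15.3 and 28.4 RPKM with sh003, 0.766 and 1.72 with sh004 and 3.24 in the control. CHGB read 93.5 and 358 RPKM with sh003, 22.3 and 26.8 with sh004 and 46.3 in the control. For these genes both sh003 spheres lay above the control, as for 40.5% of all genes tested, and above both sh004 spheres, as for 42.9%. VGF read 102 and 76.0 RPKM with sh003, 234 and 175 with sh004 and 197 in the control, so the sh003 spheres lay below the control, as for 41.5% of all genes, and below the sh004 spheres, as for 33.0%.

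In limma sh003 spheres exceeded sh004 spheres in SLC18A1 by 3.67 on the log2 scale (SE 0.39, adjusted p = 0.00867), in DBH by 2.13 (SE 0.32, adjusted p = 0.00893) and in CHGB by 2.88 (SE 0.58, adjusted p = 0.0139). VGF was lower by -1.19 (SE 0.24, adjusted p = 0.0142). These were 3 of 10 higher and 1 of 10 lower, where 23.1% of all 14711 genes tested were called higher and 16.8% lower, so the count of members is near the background. The median over the 10 was 1.02 and over all genes 0.13, and median-ratio scaling moved the latter by -0.14 and kept the count of 4. The calls rested on few libraries, and each of the 4 was lost in at least 1 fit that left out a knockdown sphere. Over these fits the differences ran from 3.24 to 4.11 for SLC18A1 and from 1.78 to 2.48 for DBH. They ran from 1.91 to 3.85 for CHGB and from -1.41 to -0.98 for VGF. In the values as deposited SLC18A1 alone was called (3.60, SE 0.78, adjusted p = 7.77e-04).

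The other genes in spheres were not called between the knockdowns in the main limma fit. CHGA read 793 RPKM in the control sphere, 2413 and 482 with sh003 and 1808 and 2614 with sh004. NPY read 261 RPKM in the control, 10.6 and 62.0 with sh003 and 31.2 and 40.1 with sh004, so all 4 knockdown spheres lay below the single control, where 41.5% of all genes did so with sh003 and 49.4% with sh004. TH read 3.34 RPKM in the control, 2.11 and 0.777 with sh003 and 0.348 and 0.0221 with sh004. DDC (65.3 to 118 RPKM), SLC6A2 (3.27 to 16.1) and SLC18A2 (1.25 to 3.84) completed the set.

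Against the 1 control sphere limma called 0 of 10 for sh003, with 0% of all genes called, 5 of the 10 at p under 0.05 before adjustment and 0 called by voom. NPY differed by -3.31 (SE 0.90, adjusted p = 0.192). It differed by -4.56 (adjusted p = 0.0057) without sh003 sh2 and by -2.07 (adjusted p = 0.126) without sh003 sh1, fits that set 1 library against 1. For sh004 limma called 0 of 10, with 0.00680% of all genes lower and 0.122% higher, 2 of the 10 at p under 0.05 before adjustment and 0 called by voom. NPY differed by -2.87 (SE 0.90, adjusted p = 0.157) and TH by -2.53 (SE 0.57, adjusted p = 0.118; -2.79 and 0.0462 in the values as deposited). These tests assume that the control sphere varies like the knockdown pairs.

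Both KELLY libraries read higher for TH than any SH-SY5Y library, though the tables were normalised separately, and the SOX9 siRNA library was the higher of the pair. SOX9 itself read 5.61 RPKM in the control siRNA library and 0.974 RPKM in the library treated against it. TH read 22 and 64.0 RPKM, from 1817 and 4979 reads, a log2 ratio of reads per library total of 1.54 (95% exact Clopper-Pearson interval 1.46 to 1.62, counting error only). SLC18A1 read 20.4 and 40.8 RPKM (1.00, interval 0.92 to 1.08), and VGF 55.4 and 97.3 RPKM (0.81, interval 0.76 to 0.87). CHGB read 276 and 168 RPKM (-0.72, interval -0.74 to -0.69), NPY 50.9 and 36.4 (-0.48, interval -0.61 to -0.35) and CHGA 1522 and 1154 (-0.40, interval -0.41 to -0.39).

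**Figure D4:**
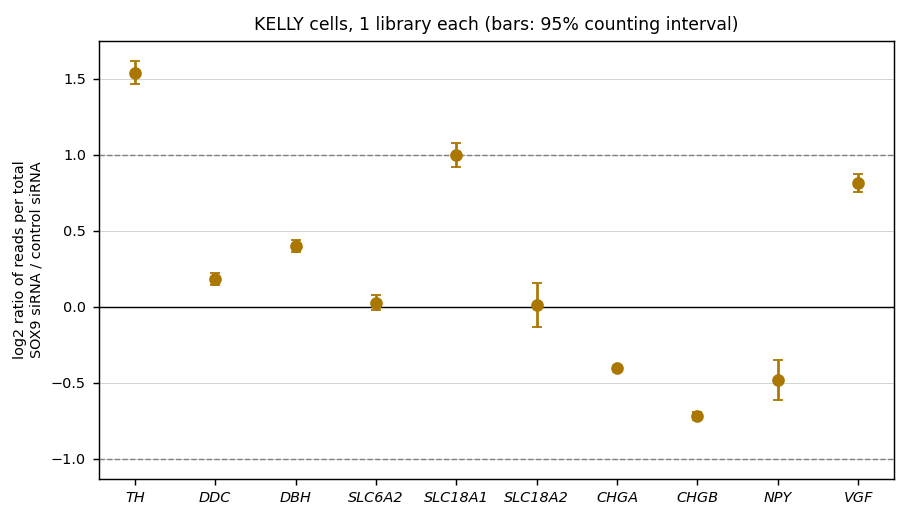
Log2 ratio of reads per library total, SOX9 siRNA against control siRNA, in KELLY cells with 1 library each; bars are 95% exact counting intervals and dashed lines mark a log2 ratio of 1 and -1. TH lies at 1.54, beyond the upper dashed line, and CHGB is the lowest at -0.72.

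DBH (118 and 155 RPKM, 0.40) and DDC (119 and 135 RPKM, 0.18) were slightly higher with the SOX9 siRNA. SLC6A2 (50.0 and 50.9 RPKM, 0.03, interval -0.02 to 0.08) and SLC18A2 (7.85 and 7.92 RPKM, 0.01, interval -0.13 to 0.16) did not differ beyond counting error. By the log2 ratio of RPKM + 0.5, only TH (1.52) passed a log2 ratio of 1, 1 of 10, where 0.811% of the 13070 genes at RPKM 1 or above in both libraries did so, and 0.788% passed -1. SLC18A1 lay just inside at 0.98. With 1 library each there is no replicate check and no test of the siRNA.

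Over the 15 monolayer libraries, the genes whose log2(RPKM + 0.5) followed a member most closely were looked up among 10505 protein coding genes with a mean RPKM of at least 2. TH lay nearest to SCG3 (0.832), MAPK8IP1 (0.810) and SCN3B (0.810), with Pearson's r in parentheses. TH failed the filter, with a median of 0.0509 RPKM over these libraries. Most of its values lay at the floor of this scale, so its r rests on few libraries. Of the enzymes and transporters, genes near DDC included CNOT9 (0.955) and PCNA (0.950), and DBH lay nearest to RTL1 (0.969), TFAP2B (0.950) and NKAIN1 (0.948). SLC6A2 was closest to PRRT4 (0.952), SLCO4A1 (0.949) and NT5DC2 (0.948). SLC18A1 was closest to ADCYAP1R1 (0.948), SFXN1 (0.934) and DUSP26 (0.933), where ADCYAP1R1 encodes a PACAP receptor, and SLC18A2 to ARL6 (0.907), KPNA1 (0.904) and CCNI (0.897). Among granule proteins, CHGA lay nearest to TAGLN3 (0.908), ITPK1 (0.907) and IGFBPL1 (0.899), and genes near CHGB included TLCD3B (0.918) and PGBD5 (0.891). For the neuropeptide genes, genes near NPY included PALS2 (0.961) and ID4 (0.932), and VGF lay nearest to GRAMD1B (0.844), KLF11 (0.827) and LONRF2 (0.826). These are descriptions over libraries that share batch, day and shRNA.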

How the data were processed

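The submitters' processing notes name Subread, featureCounts and TopHat and the build hg19. Versions, annotation and strand setting are not given in the sources used here. The authors deposited RPKM in 3 tables (monolayer, sphere, KELLY) with a gene length column. Whole reads were recovered from RPKM and length, every value within 0.01 of a whole number. The deposited sphere RPKM used 10 library totals in rotation from gene to gene, 5 of them equal to a sphere library's own total, so spheres were recomputed with their own totals. Of 63677 identifiers 52181 matched a reference symbol. Groups follow the titles.

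limma 3.58.1 (R 4.3.3) with a mean-variance trend was fitted to log2(RPKM + 0.5) over genes that reached RPKM 1 in at least 2 libraries (19461 in monolayers, 14711 in spheres). All groups of a table shared a spread (9 and 2 residual degrees of freedom), calls were made at a Benjamini-Hochberg adjusted p under 0.05 over all genes, and the procedure was tested on simulated data. Fold changes on this scale understate those of low genes. Since the unit is RPKM, count tests were not the main test, and limma's voom on the recovered reads was an alternative. Titles number the batches. Deviations from group means correlated at 0.716 to 0.942 between same-batch libraries of control and sh003 (16 pairs, median 0.818). Between batches they ran from -0.920 to 0.744 (29 pairs, median -0.792). Deviations within a group cancel by construction, which lowers the values between batches. A fit with batch as a block is given where it changes a call.

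The 10 genes and the gene lists were chosen with earlier results of these data known. A log2 change is printed for a gene called with or without the block. Changes of 1 or more with groups that do not overlap are also printed, but not all of them. Some are left out in spheres and for sh003 against sh004 at day 7. Up to 4 genes of a list are named by the smallest p of the averaged retinoic acid change. PHOX2A, the other sample checks and the marker sums were named after their values were seen. The 3 genes nearest to each member by Pearson's r are named, and a few genes of this rule and of the lists are not reported here. No library was left out.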

Additional observations from a re-analysis of the deposited data

How the results depend on the processing

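The averaged retinoic acid count was 4 or 5 of 9 without the block and ran from 4 to 6 with it when each library was left out. The changes that were called kept their direction under the alternatives run, and the averaged CHGA and CHGB changes, which were not called, changed sign with the block. Counts of members called moved elsewhere. The share of all genes called in each alternative fit is not given here, so these counts show only how calls moved. For retinoic acid with sh003 the count of 3 became 5 with batch as a replicate block and 0 without the libraries with contradictory tags, and ran from 1 to 3 when each library was left out. With sh004 the count of 0 became 1 with the block and ran from 0 to 1 with libraries left out. For sh003 against sh004 at day 7 it ran from 0 to 3. In spheres it ran from 0 to 1 for sh003 and from 0 to 6 for sh003 against sh004, where the deposited RPKM gave 1 and no filter on low values gave 0 of 4, and for sh004 the deposited RPKM gave 1. Under the batch pairing, alternatives added after seeing the data gave 2 for retinoic acid in controls with median-ratio scaling and 0 to 1 with libraries left out, 2 to 4 with sh003, 0 to 4 with sh004, and 0 to 4 for sh003 against sh004 at day 7. The cause was not tested. The block changed no other count of members by over 1.5 times.

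Leaving out the sh003 day 7 sh2 library of batch 2 gave the count of 1, leaving out sh004 sh2 at day 7 gave the higher counts for retinoic acid with sh004, and leaving out sh004 sh1 at day 7 gave those for sh003 against sh004. Of genes called for the averaged change 60.8% were higher, and 47.4% with median-ratio scaling; in spheres (sh003 against sh004) 57.9% and 47.1%, in controls 73.7% and 62.7%, and with sh003 66.6% and 54.8%. That scaling moved the median of all genes by 0.15 for sh004 spheres, and changed the sign of DDC and DBH there (-0.01 and -0.03) and of SLC18A2 in controls. Without the control sphere no comparison with it was possible. Depth limits TH most, which rested on 0 to 5 reads in 10 of 15 monolayers.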
